A study of Mus musculus with 6 samples.

Results

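The Cyp3a family is the mouse branch of cytochrome P450 subfamily 3A, and it was followed here through the 8 rows of the deposited gene table named Cyp3a11, Cyp3a13, Cyp3a16, Cyp3a25, Cyp3a41a, Cyp3a41b, Cyp3a44 and Cyp3a59. These 8 genes were taken by symbol, out of 43346 rows in all, from a list made with earlier results of these data known. A ninth row of the subfamily, Cyp3a57, was not on the list and is given for comparison only. RNA was sequenced from 6 liver tumours of mice that overexpress SULF2, an extracellular heparan sulfate sulfatase, from a line named Sulf2-TTR. The tumours were raised with diethylnitrosamine (DEN), a carcinogen that liver P450 enzymes activate. In 3 tumours Gli1 was wild type (WT) and in 3 it was knocked out (KO). Both groups carry the SULF2 overexpression and the DEN treatment, so no tumour without either, and no normal liver, enters the comparison. Strain, sex, age, DEN dose and the driver of the transgene are not spelled out in the sources used here. Nothing in the labels tells if the tumours are from separate animals, so p-values measure only the spread between these samples.

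CYP3A enzymes are heme proteins of the endoplasmic reticulum that oxidise drugs, steroids and bile acids, with electrons supplied by P450 oxidoreductase and cytochrome b5. In hepatocytes their genes are induced by the nuclear receptors PXR (Nr1i2) and CAR (Nr1i3), which pair with RXR-alpha (Rxra), and their basal level depends on factors such as HNF4-alpha. Cyp3a11 is the main adult liver form and the usual mouse counterpart of human CYP3A4. Cyp3a13 and Cyp3a25 are made in liver and intestine, Cyp3a16 is known as a fetal and neonatal form, and Cyp3a41 and Cyp3a44 are known for higher levels in female than in male adult liver.

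All 8 genes lie on chromosome 5, in coordinates as deposited, read as GRCm38. Cyp3a13 (ENSMUSG00000029727, chr5:137892932-137921619, minus strand) stands alone and overlaps the gene model Gm15502 on the same strand. The others sit in a run of 8 Cyp3a rows over 768 kb that begins 7.42 Mb further along. On the minus strand of that run lie Cyp3a16 (ENSMUSG00000038656, chr5:145436309-145469723), Cyp3a41b (ENSMUSG00000075552, chr5:145558675-145584730), Cyp3a41a (ENSMUSG00000075551, chr5:145694060-145720136), Cyp3a44 (ENSMUSG00000054417, chr5:145773983-145805874), Cyp3a11 (ENSMUSG00000056035, chr5:145854426-145879964) and Cyp3a25 (ENSMUSG00000029630, chr5:145977194-146009618). Cyp3a59 (ENSMUSG00000061292, chr5:146079258-146113285) is on the plus strand, as is Cyp3a57 (chr5:145345279-145390512) at the other end.

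By coding sequence the members form 2 close groups and 1 distant gene. Cyp3a11, Cyp3a16, Cyp3a41a, Cyp3a41b and Cyp3a44 are 92.5 to 99.9% identical to one another. Cyp3a25 and Cyp3a59 are 97.5% identical, while Cyp3a11 and Cyp3a25 are 77.4% identical. Cyp3a13 is 76.5 to 77.9% identical to every other member. The pair Cyp3a41a and Cyp3a41b differs at 2 of 1512 coding bases, G120A and G336T, counted from 1 at the A of the start codon with the Cyp3a41a base first. Both changes fall on the third base of a codon. The coding bases around them, from the GENCODE M21 transcripts of GRCm38, are shown because they are all that separates the 2 genes within their coding sequence. The capital marks the differing base.
Cyp3a41a around base 120: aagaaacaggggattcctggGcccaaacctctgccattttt
Cyp3a41b around base 120: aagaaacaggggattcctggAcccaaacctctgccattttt
Cyp3a41a around base 336: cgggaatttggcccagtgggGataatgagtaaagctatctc
Cyp3a41b around base 336: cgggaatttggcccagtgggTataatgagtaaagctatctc

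**Figure D1:**
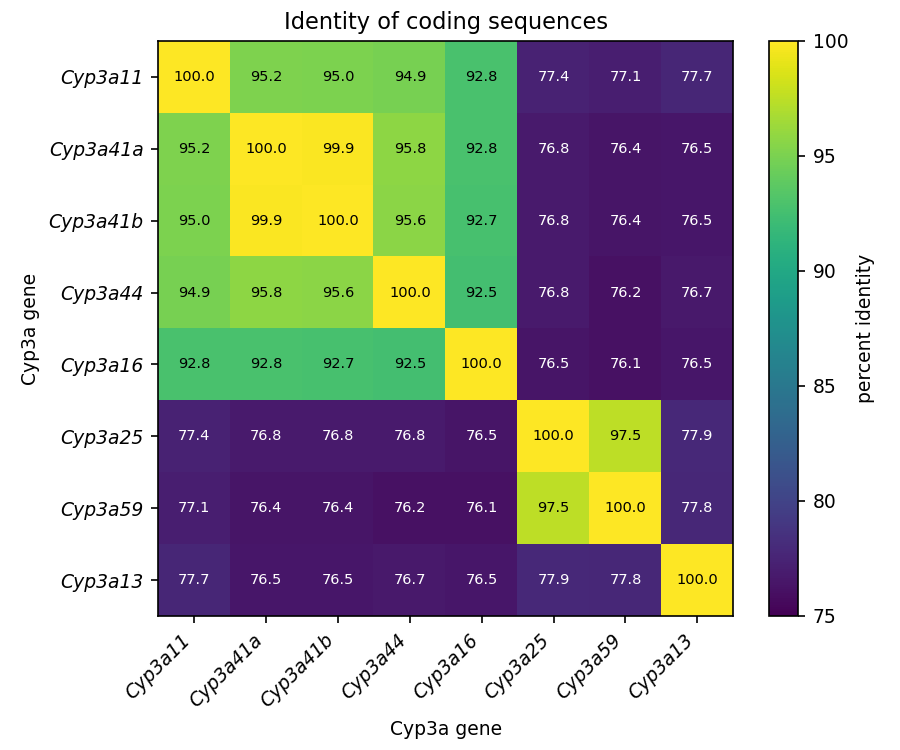
Percent identity of the coding sequences of each pair of Cyp3a genes (GENCODE M21), with genes on both axes and the value in each cell. Cyp3a41a and Cyp3a41b, at 99.9%, and Cyp3a25 and Cyp3a59, at 97.5%, are the closest pairs of members, and Cyp3a13 stands below 78% identity with every other gene.

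How well a short read can tell these genes apart follows from the transcripts. Of all 50-base stretches, 1.39% of those in Cyp3a41a and 6.5% of those in Cyp3a41b occurred in no other annotated gene. Cyp3a41a shared 93.7% of its stretches with Cyp3a41b. With 100-base stretches the unique shares were 9.18% and 11.8%. Cyp3a25 and Cyp3a59 had 73.2% and 69.98% unique 50-base stretches, Cyp3a44 73.5%, Cyp3a16 89.3%, Cyp3a11 93.3% and Cyp3a13 100%. Read length and the treatment of reads with several matches are not given in the sources used here. Counts of Cyp3a41a and Cyp3a41b are therefore uncertain as to which of the 2 genes they came from. If reads with several matches were left out, many reads of both genes would also be missing.

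The RefSeq promoters (GRCm38.p6) show the same pairs. Over the 250 bases before the start, Cyp3a41a and Cyp3a41b differed at 1 base. Cyp3a25 and Cyp3a59 were 94.8% identical, and Cyp3a11 and Cyp3a25 58.3%. The 180 bases before the start of these 2 pairs are printed because their counts behaved differently across the tumours. Those of Cyp3a25 and Cyp3a59 ran closely alike, and those of Cyp3a41a and Cyp3a41b, which few stretches tell apart, did not. In Cyp3a25 and Cyp3a59 the capitals mark AGGTCA, the half-site letters of nuclear receptors, or TGACCT, the same letters on the opposite strand. In Cyp3a41a and Cyp3a41b they mark TGAACT, which is AGTTCA on the opposite strand, and TATAAA.
Cyp3a25 (chr5:146009619-146009798, minus strand): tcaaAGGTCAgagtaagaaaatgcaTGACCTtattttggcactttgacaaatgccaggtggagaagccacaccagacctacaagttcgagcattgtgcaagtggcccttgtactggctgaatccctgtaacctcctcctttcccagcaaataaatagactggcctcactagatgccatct
Cyp3a59 (chr5:146079078-146079257, plus strand): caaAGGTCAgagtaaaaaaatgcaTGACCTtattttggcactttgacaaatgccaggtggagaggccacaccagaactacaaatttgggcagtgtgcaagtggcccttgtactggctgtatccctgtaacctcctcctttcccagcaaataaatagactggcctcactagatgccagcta
Cyp3a41a (chr5:145720137-145720316, minus strand): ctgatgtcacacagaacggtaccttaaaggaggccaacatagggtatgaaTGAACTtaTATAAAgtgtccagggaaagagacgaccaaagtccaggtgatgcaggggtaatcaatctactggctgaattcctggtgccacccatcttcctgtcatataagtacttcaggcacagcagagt
Cyp3a41b (chr5:145584731-145584910, minus strand): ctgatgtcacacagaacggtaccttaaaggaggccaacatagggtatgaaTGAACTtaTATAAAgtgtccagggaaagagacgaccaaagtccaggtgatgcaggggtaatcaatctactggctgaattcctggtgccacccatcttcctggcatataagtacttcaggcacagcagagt

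Each motif was searched on both strands from 250 bases before to 50 bases after the start. AGGTCA was present in 4 of the 8 members (Cyp3a11, Cyp3a25, Cyp3a44 and Cyp3a59) and in 16.3% of all 32851 promoters. AGTTCA was present in Cyp3a11, Cyp3a41a and Cyp3a41b, and in 13.99% of all promoters. TATAAA was present in the 5 members of the Cyp3a11 sequence group and in 13.6% of all promoters. Repeats of AGTTCA or AGGTCA in the same direction spaced by 3 bases occurred in 0.0122% of all promoters, and those spaced by 4 bases in 0.0274%. Everted repeats occurred in 0.00913% with a spacing of 6 bases and in 0.0122% with a spacing of 8 bases. No member held any of these 4 arrangements in this window.

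The libraries held 75205624 to 132979502 gene-assigned reads each. Gli1 itself had 10, 20 and 7 reads in WT replicates 1, 2 and 3, and 4, 3 and 3 reads in the KO replicates. Its log2 fold change, KO minus WT, was -2.24 ± 0.66 (SE), with an unadjusted p of 0.0112 by edgeR's quasi-likelihood test. Sulf2 ranged from 5.33 to 76.4 normalized CPM, which are read counts scaled to library size, in WT and from 2.63 to 164 in KO tumours. WT replicate 3 and KO replicate 1 stood apart from the other 4 libraries on the first principal component of all genes tested, which held 42.7% of the variance. They scored 80.9 and 65.2, and the others between -67.9 and -6.95. The hepatocyte markers (Alb, Apoa1, Ttr, Apob, Serpina1c and Ttc36) summed to 145663 to 195342 CPM in WT tumours and 138213 to 156822 in KO tumours. Ddx3y, a Y-linked gene, had 3114 to 8845 reads in every library and Xist 4 to 29, which is at most 0.28 CPM. By these genes all 6 libraries looked male.

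Cyp3a11 dominated the family in every tumour. On the RPKM of the authors, which scale counts to the coding length of each gene, its level averaged 1048 ± 682 (SD, n = 6), the 50th highest mean of all rows. Cyp3a25 followed at 197.0 ± 105.7 RPKM, Cyp3a13 at 90.7 ± 37.6 and Cyp3a59 at 34.6 ± 17.9. The lower members were Cyp3a16 at 12.0 ± 8.26 RPKM, Cyp3a44 at 5.60 ± 2.85, Cyp3a41a at 1.21 ± 1.42 and Cyp3a41b at 0.51 ± 0.75. If reads with several matches were left out, Cyp3a41a and Cyp3a41b would be understated against the other members. Of their 50-base stretches 1.39% and 6.5% were unique, against 93.3% for Cyp3a11. The size of any such loss was not tested. Cyp3a57 averaged 0.65 ± 0.22 RPKM.

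Much of this order held within each library. Cyp3a11 lay above Cyp3a25, Cyp3a13 above Cyp3a59, Cyp3a59 above Cyp3a16 and Cyp3a44 above Cyp3a41a in 6 of 6 libraries. Cyp3a25 lay above Cyp3a13 in 5 of 6, WT replicate 3 being the exception. Cyp3a16 lay above Cyp3a44 in 5 of 6, the exception being KO replicate 3. Cyp3a41a, Cyp3a57 and Cyp3a41b were not ordered beyond their spread, since each lay above the next in 4 of 6 libraries. The places of Cyp3a41a and Cyp3a41b rest on the counted reads only, which may leave out reads with several matches.

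**Figure D2:**
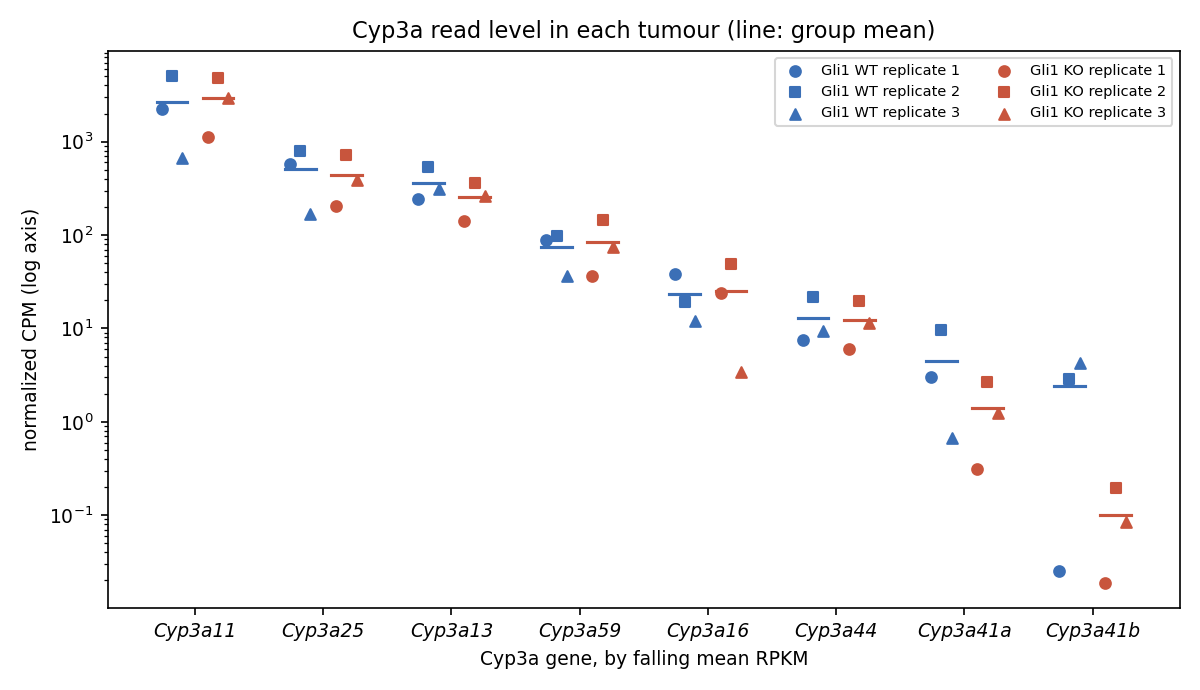
Normalized CPM of each Cyp3a gene on a log axis, 1 point per tumour library, WT in blue and KO in red, with a bar at each group's mean. The genes run from the highest to the lowest level, and the WT and KO points overlap for all 8 members.

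No member passed the test between the genotypes. All 8 passed the low-count filter, and 0 of 8 passed a false discovery rate (FDR) of 0.05 over the 18359 genes tested with edgeR, where 0% of all genes passed. The FDR of each member was 1.00, and the smallest of any gene was 0.407. At an unadjusted p below 0.05 there was 1 member of 8, Cyp3a41b, against 3.62% of all genes. DESeq2 called 0 members and 0.352% of the 18206 genes it adjusted. For 0 of the 8 did the WT and KO values separate without overlap, against 8.11% of all genes. Of the 8 fold changes 3 were positive and 5 negative, with a median of -0.15 on the log2 scale, against -0.01 over all genes tested. RNA came from bulk tumour, so fewer hepatocytes and less RNA per hepatocyte cannot be told apart.

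Cyp3a11 measured 2245, 5043 and 666 normalized CPM in WT replicates 1, 2 and 3, and 1132, 4838 and 2945 in KO replicates 1, 2 and 3. Each genotype thus held 1 tumour near the top of the range and 1 near the bottom. The log2 fold change was 0.16 ± 0.79 (SE; unadjusted p = 0.842, FDR 1.00 by edgeR), with a 95% interval from -1.73 to 2.06. That interval spans changes of more than 3-fold either way, so the data bound the genotype difference only loosely. The highest library held 7.57 times the lowest, and 89.9% of all genes tested had a smaller ratio, the median being 2.04.

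Cyp3a25 measured 581, 797 and 166 CPM in WT tumours and 202, 715 and 392 in KO tumours, with the same 2 libraries, WT replicate 3 and KO replicate 1, at the bottom. Its log2 fold change was -0.24 ± 0.66 (SE; unadjusted p = 0.728 by edgeR, interval -1.81 to 1.33). Cyp3a59, its near copy, measured 88.4, 97.4 and 36.4 CPM in WT tumours and 36.1, 144.7 and 74.8 in KO tumours. Here the highest library was KO replicate 2, and the same 2 libraries were lowest. The log2 fold change of Cyp3a59 was 0.20 ± 0.56 (SE; unadjusted p = 0.731 by edgeR, interval -1.15 to 1.55).

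Cyp3a13 measured 244, 538 and 313 CPM in WT tumours and 142, 362 and 262 in KO tumours. It was lowest in KO replicate 1, but WT replicate 3, where Cyp3a11 was lowest, lay in the middle of its range. The log2 fold change of Cyp3a13 was -0.52 ± 0.43 (SE; unadjusted p = 0.275 by edgeR, interval -1.55 to 0.52). All its 50-base stretches are unique among annotated transcripts, and whether reads were shared with the overlapping Gm15502 was not tested.

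Cyp3a16, the fetal and neonatal form, measured 37.8, 19.4 and 12.1 CPM in WT tumours and 23.7, 48.7 and 3.39 in KO tumours. Its lowest library was KO replicate 3, where Cyp3a11 stood the third highest of 6. The log2 fold change was 0.13 ± 0.86 (SE; unadjusted p = 0.884 by edgeR, interval -1.93 to 2.19). Cyp3a44, one of the female-biased forms, measured 7.55, 21.5 and 9.50 CPM in WT tumours and 6.05, 19.7 and 11.4 in KO tumours. WT replicate 2 and KO replicate 2 were its high libraries. For Cyp3a44 the log2 fold change was -0.05 ± 0.54 (SE; unadjusted p = 0.924 by edgeR, interval -1.34 to 1.24).

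Cyp3a41a measured 3.02, 9.62 and 0.66 CPM in WT tumours and 0.31, 2.66 and 1.25 in KO tumours, with WT replicate 2 highest and KO replicate 1 lowest. For Cyp3a41a the log2 fold change was -1.65 ± 1.06 (SE; unadjusted p = 0.167 by edgeR, interval -4.19 to 0.89). Cyp3a41b had 2, 218 and 383 reads in WT replicates 1, 2 and 3, which is 0.03, 2.88 and 4.31 CPM. In the KO replicates it had 2, 26 and 7 reads, or 0.02, 0.20 and 0.08 CPM. The level was thus above the KO tumours in 2 WT tumours, though low there too, while WT replicate 1 lay within the KO range.

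The fold change of Cyp3a41b was the largest in the family at -4.55 ± 1.59 (SE; unadjusted p = 0.0251, FDR 1.00 by edgeR), with an interval from -8.34 to -0.76. DESeq2 gave -4.58 with an adjusted p of 0.0526, and limma voom gave -3.26 with an unadjusted p of 0.221. The numbers that open the sample descriptions, whose meaning the labels do not give, move with this gene. Below 2000 lie WT replicate 1 (0.03 CPM) and KO replicates 1 and 3 (0.02 and 0.08 CPM). Above it lie WT replicates 2 and 3 (2.88 and 4.31 CPM) and KO replicate 2 (0.20 CPM). With that range as a covariate the log2 fold change was -2.21 (unadjusted p = 0.234 by edgeR). Without WT replicate 3 and KO replicate 1, the libraries that stand apart, it was -3.32 (unadjusted p = 0.135).

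**Figure D3:**
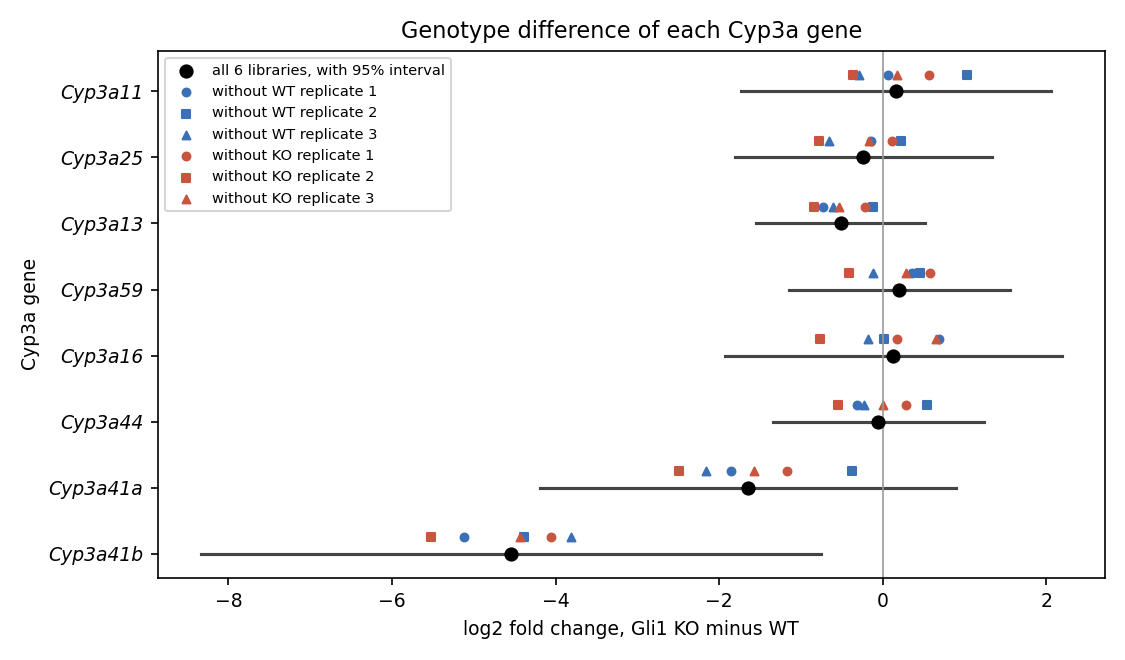
Log2 fold change of each Cyp3a gene, Gli1 KO minus WT, with its 95% interval from edgeR (black) and the value after leaving out each library in turn (coloured points). The intervals of all members but Cyp3a41b include 0, and the interval of Cyp3a41b runs from -8.34 to -0.76.

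The split of reads between the Cyp3a41 copies varied between tumours more than their counting error. Cyp3a41b held 86.7% of the 442 reads of the pair in WT replicate 3 (95% exact binomial interval 83.1 to 89.7%). In WT replicate 2 it held 23.0% of 946 reads (20.4 to 25.9%), and in WT replicate 1 it held 0.82% of 243 reads (0.10 to 2.94%). The KO tumours gave shares of 5.71% of 35 reads (0.70 to 19.2%), 6.86% of 379 reads (4.53 to 9.89%) and 6.31% of 111 reads (2.57 to 12.6%). These intervals cover counting error only. Summed over both copies, the level was 3.04, 12.5 and 4.97 CPM in WT tumours and 0.33, 2.85 and 1.34 in KO tumours. On that sum the groups did not overlap, although the highest KO value, 2.85, lay just under the lowest WT value, 3.04. The sum was formed after the values were seen, and it was not tested. Reads with several matches, if left out of the counts, would be missing from both the sum and the split.

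**Figure D4:**
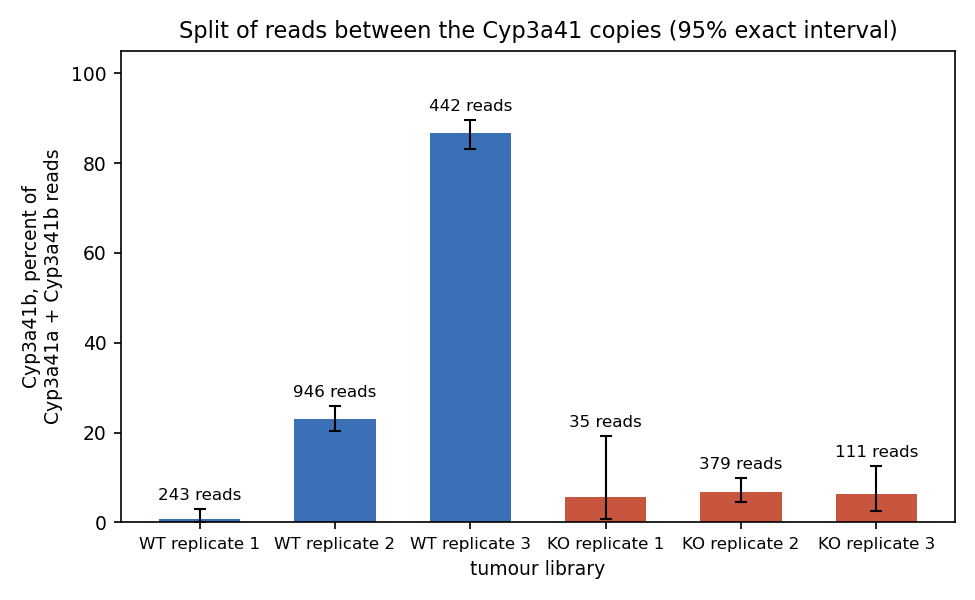
Share of Cyp3a41b in the reads counted for Cyp3a41a and Cyp3a41b together, in percent, for each of the 6 libraries, with 95% exact binomial intervals that cover counting error only. WT replicate 3 stands at 86.7%, WT replicate 2 at 23.0% and the other 4 libraries below 7%.

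Summed, the 8 genes held 0.289, 0.657 and 0.112% of all counts in WT and 0.169, 0.613 and 0.398% in KO tumours. Their summed level was 3207, 6529 and 1209 CPM in WT tumours and 1543, 6130 and 3690 in KO tumours. The sum was lowest in WT replicate 3 and KO replicate 1 and highest in the second replicate of each genotype. Cyp3a11 made up 56.6 to 79.6% of the family's summed RPKM, Cyp3a25 11.9 to 20.1% and Cyp3a13 4.63 to 21.1%. Cyp3a59 made up 1.74 to 3.63%, Cyp3a16 0.12 to 2.06% and Cyp3a44 0.28 to 0.96%. Reads of Cyp3a41a and Cyp3a41b with several matches, if left out of the counts, would be missing from the family's sums.

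The makeup was steadier for some pairs than for others. The RPKM ratio of Cyp3a25 to Cyp3a59 lay between 4.38 and 7.85 over the 6 libraries, and that of Cyp3a11 to Cyp3a25 between 3.43 and 6.68. The ratio of Cyp3a11 to Cyp3a13 ran from 2.68 in WT replicate 3 to 16.9 in KO replicate 2. The ratio of Cyp3a16 to Cyp3a44 ran from 0.34 in KO replicate 3 to 5.68 in WT replicate 1. In the other 4 libraries it was 1.02 and 1.45 (WT replicates 2 and 3) and 4.44 and 2.81 (KO replicates 1 and 2), so high and low ratios occurred in both genotypes.

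Across the 6 libraries the levels of Cyp3a11, Cyp3a25 and Cyp3a59 ran closely alike. On log2 CPM, Pearson's r was 0.95 between Cyp3a11 and Cyp3a25, 0.95 between Cyp3a25 and Cyp3a59 and 0.93 between Cyp3a11 and Cyp3a59, with Spearman's rho of 0.94, 0.89 and 0.83. Cyp3a25 and Cyp3a59 share 25.2% of the 50-base stretches of Cyp3a25, and the part of shared reads in their likeness was not tested. Cyp3a13 ran closest to Cyp3a44 (r = 0.90, rho 0.94) and less close to Cyp3a11 (r = 0.58, rho 0.66). Cyp3a16 ran with neither Cyp3a11 (r = 0.17) nor Cyp3a44 (r = 0.08), although its coding sequence is 92.8 and 92.5% identical to theirs. The near-identical Cyp3a41a and Cyp3a41b had an r of 0.31, and the part of read assignment in that value was not tested. All these values are descriptions over 6 points that share library and scaling.

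**Figure D5:**
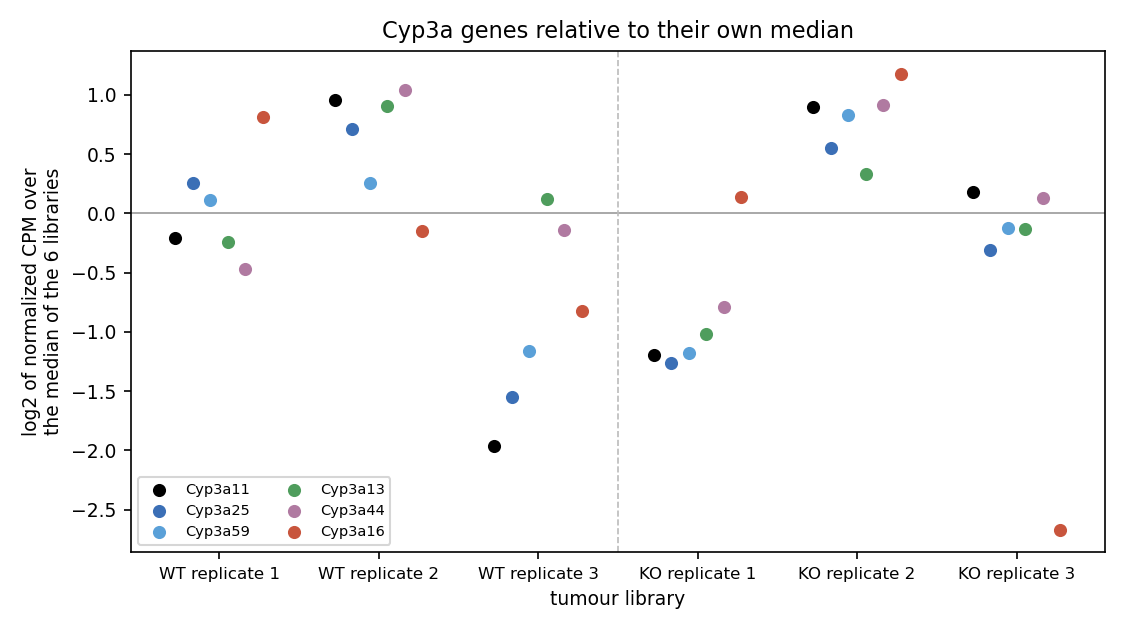
Log2 of each gene's normalized CPM over its own median, for 6 Cyp3a genes in the 6 tumour libraries, WT on the left and KO on the right. Cyp3a11, Cyp3a25 and Cyp3a59 all lie well below their medians in WT replicate 3 and KO replicate 1. In WT replicate 3 Cyp3a13 lies slightly above its median and Cyp3a44 slightly below. Cyp3a16 lies far below the rest in KO replicate 3.

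Of 10153 genes outside the family with a mean of at least 5 CPM, those most like Cyp3a11 over the 6 libraries were Asb13 (r = 0.99), Ccdc28a (r = 0.99), Chd1l (r = 0.99) and Rnf187 (r = 0.98). An r above 0.9 with Cyp3a11 was found for 204 genes, or 2.01%. Closest to Cyp3a25 were Rnf169, Klf15, Dhdh and Phyhd1, with r from 0.986 to 0.995, and 2.61% of genes lay above 0.9. Klf15, a glucocorticoid- and fasting-responsive transcription factor, measured 116, 140.0 and 75.4 CPM in WT tumours and 76.0, 131 and 104.9 in KO tumours. Closest to Cyp3a13 were Mpv17l, Zmynd11, Cpn2 and Cyp2d22, each with an r of 0.99, and 1.19% of genes lay above 0.9. Cpn2 encodes a liver-made subunit of carboxypeptidase N, and Cyp2d22 is another liver P450. Among the genes closest to Cyp3a16 were Gm14698 and Dedd, each with an r of 0.99, and Tnpo2, with an r of 0.96. Of all genes searched 0.414% lay above 0.9 with Cyp3a16.

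Receptors and hepatocyte factors known to act on Cyp3a promoters were tested next. Of 18 genes 17 were tested and 0 passed, with 3 at p below 0.05, 6 fold changes positive and 11 negative, and a median of -0.10. For comparison with this list and those below, 3.62% of all genes tested had an unadjusted p below 0.05 by edgeR. Over all genes tested 8857 fold changes were positive and 9502 negative. The lists were chosen with earlier results of these data known, so their counts are descriptions. Hnf4a measured 577, 727 and 610 CPM in WT tumours and 469, 593 and 455 in KO tumours (unadjusted p = 0.179 by edgeR). Nr0b2, the repressor SHP, was higher in all KO tumours at 14.4, 36.1 and 18.1 CPM than in WT at 7.55, 8.71 and 13.3. Its log2 fold change of 1.21 ± 0.40 (SE) had an unadjusted p of 0.0202 and FDR 1.00 by edgeR. Foxa1, a pioneer factor of liver chromatin, also separated, at 11.6 to 13.3 CPM in WT tumours and 14.1 to 18.0 in KO tumours (unadjusted p = 0.0371, FDR 1.00 by edgeR). Cebpb, named after its values were seen, separated in the opposite direction. It lay at 26.3 to 27.3 CPM in WT tumours and 15.2 to 22.8 in KO tumours (unadjusted p = 0.0498 by edgeR). Of all genes tested 8.11% separated without overlap.

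The receptors PXR and CAR were singled out after their values were seen. Nr1i2 measured 82.0, 105.1 and 58.4 CPM in WT tumours and 58.0, 98.2 and 83.5 in KO tumours, with a log2 fold change of -0.03 ± 0.29 (SE; unadjusted p = 0.909 by edgeR). Its order over the libraries was close to that of Cyp3a11, with r = 0.97 and rho = 0.94, and 14 of the 10153 genes (0.138%) were more like Cyp3a11. With Cyp3a25 its r was 0.97, with Cyp3a59 0.94 and with Cyp3a13 0.73. Its range was narrow beside theirs, since its highest library held 1.81 times its lowest. Nr1i3 measured 134, 552 and 52.2 CPM in WT tumours and 69.4, 112 and 53.5 in KO tumours, highest in WT replicate 2. Its r with Cyp3a11 was 0.65, and 18.3% of the genes searched were more like Cyp3a11. Rxra lay between 323 and 423 CPM in all libraries, with r = 0.88 and rho = 0.60 to Cyp3a11, and 2.65% of genes were more like Cyp3a11. Hnf4a had an r of 0.31 with Cyp3a11, and 38.6% of genes were more like Cyp3a11. With Cyp3a13 the r of Hnf4a was 0.83. These too are descriptions over 6 libraries.

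Genes that supply P450 enzymes with electrons and heme gave 0 of 9 passing, 2 at p below 0.05 and a median of -0.11. Alad, the second enzyme of heme synthesis, measured 60.7, 59.9 and 41.9 CPM in WT tumours and 113, 103 and 128 in KO tumours. Its groups did not overlap, and its log2 fold change was 1.08 ± 0.21 (SE; unadjusted p = 0.00134, FDR 1.00 by edgeR). Hmox1, which breaks heme down, lay at 12.4 to 25.6 CPM in WT tumours and 10.98 to 13.6 in KO tumours. Its log2 fold change was -0.74 ± 0.30 (SE; unadjusted p = 0.0411, FDR 1.00 by edgeR). The electron carrier Cyb5a and the heme-binding Pgrmc1 overlapped between groups, at 394 to 671 and 670.0 to 963 CPM.

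Of 20 other target genes of PXR and CAR tested, 0 passed, 4 had p below 0.05, 8 fold changes were positive and 12 negative, and the median was -0.23. Cyp2c54 measured 8.004, 232 and 8.54 CPM in WT tumours and 2.64, 6.02 and 6.15 in KO tumours, with WT replicate 2 far above the other 5 libraries. Cyp2c37 likewise measured 9.81, 159 and 14.1 CPM in WT tumours and 8.72, 5.83 and 9.68 in KO tumours. Ugt1a1, a bilirubin-conjugating enzyme, measured 503, 969 and 421 CPM in WT tumours and 355, 550.2 and 561 in KO tumours. Ces2a, a carboxylesterase singled out after its values were seen, measured 122, 270.03 and 78.4 CPM in WT tumours and 74.3, 168 and 186 in KO tumours. Both were lowest in WT replicate 3 and KO replicate 1, the libraries lowest in Cyp3a11. Gstm1, a glutathione transferase, was not, at 466, 1267 and 962 CPM in WT tumours and 591, 530 and 1044 in KO tumours. The other liver P450 genes gave 0 of 19 passing, 1 at p below 0.05 and a median of -0.28. Cyp2e1, the main DEN-activating P450, measured 744, 5294 and 391 CPM in WT tumours and 506, 1050 and 613 in KO tumours (unadjusted p = 0.148 by edgeR). Cyp8b1, of bile acid synthesis, measured 190, 124 and 4.74 CPM in WT tumours and 6.99, 14.8 and 6.41 in KO tumours (unadjusted p = 0.0204, FDR 1.00 by edgeR).

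Since Cyp3a41a, Cyp3a41b and Cyp3a44 are female-biased forms, sex-biased liver genes and growth hormone signalling, which sets that bias, were read beside them. Of the female-biased list outside the family 17 of 18 were tested, 0 passed, 5 had p below 0.05, and the median was -0.69. Over all genes tested 3.62% had an unadjusted p below 0.05 by edgeR, and the median was -0.01. Cux2, a female-biased repressor, measured 2.08, 78.0 and 10.1 CPM in WT tumours and 0.36, 1.53 and 2.88 in KO tumours. Like Cyp3a41b it was low in WT replicate 1 and higher in WT replicates 2 and 3. Cux2 was highest in WT replicate 2, however, and Cyp3a41b in WT replicate 3. In the female-biased list 5 fold changes were positive and 12 negative. Fmo2 measured 55.0, 218 and 85.0 CPM in WT tumours and 25.9, 41.3 and 29.0 in KO tumours (unadjusted p = 0.00933, FDR 1.00 by edgeR). Cyp2a4, also female-biased, went the other way, at 712 to 1930 CPM in WT tumours and 2687 to 2848 in KO tumours.

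The male-biased list gave 0 of 16 passing, 3 at p below 0.05 and a median of -0.35. Mup7, a urinary protein of male liver, measured 32.2, 68.3 and 0.91 CPM in WT tumours and 0.68, 0.99 and 1.77 in KO tumours. Selenbp2, also male-biased, had the opposite sign, at 76.2, 36.4 and 25.3 CPM in WT tumours and 68.9, 588 and 125 in KO tumours. The log2 fold change of Selenbp2 was 2.503 ± 0.87 (SE; unadjusted p = 0.0255, FDR 1.00 by edgeR), and that of Mup7 was -4.88 ± 1.37 (SE; unadjusted p = 0.00980, FDR 1.00). Growth hormone signalling gave 0 of 9 passing, 2 at p below 0.05 and a median of -0.57. Its feedback inhibitor Socs2 measured 33.9, 70.4 and 41.5 CPM in WT tumours and 7.91, 4.47 and 14.99 in KO tumours, a log2 fold change of -2.41 ± 0.50 (SE; unadjusted p = 0.00221, FDR 1.00 by edgeR). Cish, another such inhibitor, lay at 21.5 to 47.9 CPM in WT tumours and 9.43 to 21.0 in KO tumours (unadjusted p = 0.0210, FDR 1.00 by edgeR). The receptor gene Ghr overlapped, at 131 to 403 and 125 to 234 CPM.

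Inflammatory cytokines are known to lower Cyp3a expression in liver, so a cytokine and acute-phase list was read as well. It gave 0 of 14 passing and 1 at p below 0.05. All 14 fold changes were negative, with a median of -0.52, against 9502 negative among all 18359 genes tested. Socs3, the feedback inhibitor of IL-6 signalling, measured 44.5, 40.6 and 63.5 CPM in WT tumours and 9.29, 5.91 and 6.61 in KO tumours (log2 fold change -2.77 ± 0.27, SE; FDR 0.407 by edgeR). The part of cytokine signalling in the Cyp3a levels was not tested. The pericentral and periportal genes gave 0 of 13 passing, 0 at p below 0.05 and a median of -0.51. Cps1, a periportal urea cycle enzyme, measured 2628, 4165 and 3461 CPM in WT tumours and 1234, 4033 and 2481 in KO tumours. The pericentral genes Slc1a2 and Cyp1a2 were far the highest in WT replicate 2, at 126 and 238 CPM. In every other library they lay at or below 16.5 and 41.9 CPM. Of the whole list 3 fold changes were positive and 10 negative.

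The genes next to the Cyp3a rows showed no shared change. Beside Cyp3a13, Azgp1 lay at 1210 to 1823 CPM in WT tumours and 954 to 1313 in KO tumours, and Pilrb1, Pilrb2 and Gjc3 were at or below 13.3 CPM. Beside Cyp3a57, Zscan25 stood at 13.4 CPM in KO replicate 1 and between 5.05 and 6.69 in the other libraries. Beside Cyp3a59, Cdk8 lay at 21.2 to 26.04 CPM in WT tumours and 26.7 to 30.0 in KO tumours, without overlap but with unadjusted p = 0.201 by edgeR. Each of these 8 neighbours had an FDR of 1.00.

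Markers of other cells were set beside the family. The cholangiocyte list (Krt19, Krt7, Epcam, Sox9 and Spp1) summed to 79.9, 38.8 and 479 CPM in WT tumours and 433, 75 and 472 in KO tumours. It was thus high in the 2 tumours with least Cyp3a11 and also in KO replicate 3, where Cyp3a11 was the third highest. The stellate list summed to 101 to 224 CPM in WT tumours and 213 to 356 in KO tumours. Sums of the endothelial, neutrophil, T and NK, and B and plasma lists were lower in the KO tumours without overlap, at 121 to 163, 2.02 to 5.18, 0.80 to 1.18 and 0.50 to 1.05 CPM. In WT tumours they were 176 to 221, 6.68 to 25.2, 1.28 to 2.51 and 1.62 to 2.37 CPM. The Kupffer and macrophage, erythroid and acinar sums overlapped between the genotypes, as did the stellate and cholangiocyte sums. Levels of the T and NK list and of the B and plasma list were low throughout, never above 2.51 and 2.37 CPM. Among single genes tested, 8.11% separated without overlap in either direction, and no such share was worked out for list sums. The part of any of these cell types in the Cyp3a levels was not tested. Intestine also makes Cyp3a enzymes, and the 6 enterocyte markers were split. Sis had 0 reads in every library, Alpi at most 1 and Lct at most 4. Vil1, of microvilli, lay between 0.16 and 5.84 CPM, highest in KO replicate 1. Fabp2, the intestinal-type fatty acid binding protein, lay between 38.9 and 162 CPM, and the apolipoprotein gene Apoa4 between 2060 and 32970 CPM. Both Fabp2 and Apoa4 are known to be expressed in mouse liver too.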

How the data were processed

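The table used here holds 2 values per gene and library. Read counts per gene were deposited by the authors as whole numbers, unscaled. The RPKM values deposited by the authors use the coding length of each gene and a total per library that is 12.6 to 19.0% above the summed gene counts. The tools named, per the submitters' processing notes, are TopHat2 2.0.6, HTSeq and bcl2fastq, with hg19 and GRCh37, which are human builds. The identifiers are mouse Ensembl ones, and 6 of the 9 Cyp3a rows start where GENCODE M21 (GRCm38) places them, the others within 11 bases. The strand used in counting, the annotation version and the read length are not given in the sources used here.

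Genotypes were compared on the counts with edgeR 4.0.16 (R 4.3.3) over all 6 libraries, 3 per genotype. The fit used filterByExpr, TMM scaling and the robust quasi-likelihood test, two-sided. P-values were adjusted by Benjamini-Hochberg over the 18359 genes that passed, with calls at 0.05. Gli1 did not pass the filter and was fitted beside it. Fold changes are KO minus WT. Normalized CPM use the TMM-scaled library size. RPKM served only for levels between genes. Correlations used log2 CPM with a prior count of 2. Alternatives were DESeq2 1.42.0, limma 3.58.1 (voom), other scalings, filters and designs, and leaving out libraries. In simulated counts with 200 of 18359 genes changed between KO and WT, 0% of 2-fold changes were found, 41.8% of the 4-fold ones and 69.7% of the 8-fold ones. Of the simulated calls 8.64% were false. The changed genes were drawn at random from all genes tested. Each Cyp3a member varied more between libraries than the median gene, so these rates do not measure recovery for the family.

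The members, gene lists and marker lists were chosen with earlier results of these data known. Named genes are Gli1 and Sulf2, all Cyp3a rows, the 4 genes most like each of Cyp3a11, Cyp3a25, Cyp3a13 and Cyp3a16, 2 neighbours on each side of each run, and in each list up to 4 genes, the 2 of highest mean CPM and the 2 of smallest p. Not all of these are described, and 1 is not reported here.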

Additional observations from a re-analysis of the deposited data

How the results depend on the processing

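No member was called under any of the 16 alternatives, whose lowest adjusted p for a member was 0.0526, for Cyp3a41b by DESeq2. Over all genes edgeR called 0 genes, with 665 at an unadjusted p below 0.05, limma voom called 0 with 631, and DESeq2 called 64. The signs of Cyp3a13, Cyp3a41a and Cyp3a41b held under all 16. Leaving out 1 library gave log2 fold changes of -0.37 to 1.03 for Cyp3a11, -0.84 to -0.12 for Cyp3a13, -0.77 to 0.69 for Cyp3a16, -0.78 to 0.22 for Cyp3a25, -2.49 to -0.38 for Cyp3a41a, -5.53 to -3.81 for Cyp3a41b, -0.55 to 0.54 for Cyp3a44, -0.41 to 0.57 for Cyp3a59 and -0.54 to 0.16 for Cyp3a57. Signs turned for Cyp3a11 without KO replicate 2 (-0.37) or WT replicate 3 (-0.29), and for Cyp3a59 without the same libraries (-0.41 and -0.12). Cyp3a25 turned without KO replicate 1 (0.11) or WT replicate 2 (0.22). Cyp3a16 turned with limma voom (-0.30), without KO replicate 2 (-0.77) and without WT replicate 3 (-0.18). Cyp3a44 turned with the description-number covariate (0.28) and without KO replicate 1 (0.28), KO replicate 3 (0.0047) or WT replicate 2 (0.54). Cyp3a57 turned without KO replicate 1 (0.16), KO replicate 3 (0.016) or WT replicate 1 (0.091). Leaving out WT replicate 3 and KO replicate 1 together, an alternative chosen after seeing the data, gave -0.13 for Cyp3a16 and 0.10 for Cyp3a44. The causes were not tested, beyond the smaller number of libraries.

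With the replicate number as a block, 0 genes were called, 502 had an unadjusted p below 0.05, and 0 members were called. Cyp3a16 turned to -0.42 under the block. Deviations of same-numbered libraries from their group means had r of -0.29, 0.18 and -0.34 for numbers 1, 2 and 3. With 3 libraries per genotype these values cannot decide whether the numbers mark a pairing. The description numbers are 1759 and 1767 for replicate 1, 4204 and 4206 for replicate 2, and 3981 and 1647 for replicate 3. The labels do not say what a shared replicate number means. Without WT replicate 3, 1779 genes had an unadjusted p below 0.05 and 0 were called. Cyp3a41b was below the filter of 1 CPM in 3 libraries and was fitted outside it. With 3 tumours per genotype, genotype differences of the size of the members' intervals could not be resolved, and the 35 to 946 reads of the Cyp3a41 pair limit their split.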
